A study of Rattus norvegicus with 16 samples.

Results

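The genes described here are 9 transcription factors of the liver, chosen by their symbols: Hnf4a, Cebpa, Cebpb, Cebpd, Foxa1, Foxa2, Foxa3, Onecut1 and Prox1. All 9 were found among the 17055 gene symbols of the count files, and all 9 had enough reads to be tested in every comparison. Liver RNA came from 48 male Sprague-Dawley rats aged 10 weeks, and each of the 16 libraries was made from a pool of 3 rats, with 4 libraries per group. The Isoflurane-Sepsis group holds libraries 1 to 4 and its control group 5 to 8, and the Propofol-Sepsis group holds 9 to 12 and its control group 13 to 16. Sepsis was produced by cecal ligation and puncture, in which the cecum is tied off and pierced so that its contents leak, and control rats had the abdomen opened and the cecum handled only. Isoflurane rats were both induced and maintained with isoflurane, whereas Propofol rats received ketamine-xylazine for induction and propofol thereafter, so that the induction drugs differ wherever the anesthetics do. All rats were ventilated with oxygen and stayed anesthetized, for the same time after surgery in every group, until the liver was removed, and low blood pressure was treated with saline or, where that failed, with less anesthetic. No library comes from a single animal or from an unanesthetized rat, and the spread between libraries is a spread between pools.

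Hepatocytes keep their identity through a small network of factors that bind each other's genes. HNF4A, a nuclear receptor, drives genes for lipoproteins, clotting factors, bile acid synthesis and drug metabolism. The FOXA proteins open chromatin for the other factors, ONECUT1 (also called HNF6) and PROX1 take part in liver development and in the control of metabolic genes, and C/EBP-alpha maintains the metabolic genes of resting hepatocytes. C/EBP-beta and C/EBP-delta bind the same DNA element as C/EBP-alpha, and are known for their induction by IL-6 and IL-1 in the acute-phase response. The study mainly compared how inflammation affects subcellular metabolism of the liver under each anesthetic, and RNA sequencing was a further part of it. In what follows a level is in CPM, reads on a gene scaled to library size by TMM over the 16 libraries, a difference is a log2 fold change from edgeR's quasi-likelihood test, and a gene is called, or said to rise or fall, where its Benjamini-Hochberg adjusted p over all genes tested was below 0.05. Levels are compared between samples and not between genes, since no length of the counted gene models was used.

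Reads on genes numbered between 14199422 and 49937173 per library. The tissue label held: all 11 hepatocyte markers were detected in every library, with a summed level between 141680 and 190790 CPM. The Isoflurane-Sepsis libraries differed most among themselves: between 98 and 434 genes per library lay over 2-fold from the mean of the other 3 libraries of the group, against 2 to 25 in isoflurane controls. Library 10, a Propofol-Sepsis pool, held transcripts of brain, which was collected from the same rats, at a summed level of 392 CPM over 10 brain markers, against at most 26.7 CPM in the other libraries. Library 3, an Isoflurane-Sepsis pool, had the highest share of reads outside genes (25.4%) and was the highest of its group for 7 of the 9 factors. Markers of neutrophils and monocytes summed to 44.7 to 129 CPM in Isoflurane-Sepsis and 44.3 to 62.4 CPM in Propofol-Sepsis, against 21.5 to 24.2 and 24.8 to 33.5 CPM in their controls. In whole liver, fewer cells of a type and less RNA per cell cannot be told apart.

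Promoter sequences are shown for the factor that fell in sepsis and for 2 C/EBP genes, Cebpa and Cebpb, that rose under isoflurane, to let the start sites of the network's genes be read beside their levels. They are RefSeq sequences of build GRCr8, from 250 bases before to 50 bases after an annotated start site, matched by symbol, while the counts were made on an older build. Hnf4a has a pair of promoters 35.6 kb apart, at chr3:172605970-172606269 and chr3:172641586-172641885 on the plus strand, and counts per gene do not tell their transcripts apart. Cebpa lies at chr1:96896334-96896633 and Cebpb at chr3:176816755-176817054, both on the plus strand. Capitals mark matches, on either strand, to the ONECUT letters ATTGATT, the HNF1 half-site GTTAAT, the C/EBP half-site TTGCG, the cyclic AMP element half-site TGACG or the TATA letters TATAAA.
Hnf4a, upstream start: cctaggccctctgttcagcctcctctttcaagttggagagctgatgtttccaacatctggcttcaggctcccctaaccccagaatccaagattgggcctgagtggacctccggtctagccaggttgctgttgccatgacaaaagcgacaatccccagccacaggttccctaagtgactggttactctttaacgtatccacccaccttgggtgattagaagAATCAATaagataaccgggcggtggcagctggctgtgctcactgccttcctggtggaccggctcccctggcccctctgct
Hnf4a, downstream start: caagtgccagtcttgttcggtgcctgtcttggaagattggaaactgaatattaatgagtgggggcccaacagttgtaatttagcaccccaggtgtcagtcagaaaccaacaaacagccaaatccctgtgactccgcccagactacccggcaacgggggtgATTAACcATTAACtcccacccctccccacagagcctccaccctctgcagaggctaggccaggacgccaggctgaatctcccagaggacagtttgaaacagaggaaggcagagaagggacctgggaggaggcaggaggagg
Cebpa: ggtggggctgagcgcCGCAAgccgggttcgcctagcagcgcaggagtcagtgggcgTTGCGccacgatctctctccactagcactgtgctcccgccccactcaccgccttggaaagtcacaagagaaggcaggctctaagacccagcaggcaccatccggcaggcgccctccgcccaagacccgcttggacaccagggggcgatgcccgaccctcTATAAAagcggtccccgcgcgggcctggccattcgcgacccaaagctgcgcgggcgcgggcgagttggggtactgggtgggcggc
Cebpb: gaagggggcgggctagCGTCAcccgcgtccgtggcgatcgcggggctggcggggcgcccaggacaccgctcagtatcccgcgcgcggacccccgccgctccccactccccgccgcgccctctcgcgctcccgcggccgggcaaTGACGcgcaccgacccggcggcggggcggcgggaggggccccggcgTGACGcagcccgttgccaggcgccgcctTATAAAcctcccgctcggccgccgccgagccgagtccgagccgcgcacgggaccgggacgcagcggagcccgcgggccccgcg
The upstream Hnf4a promoter held 1 ONECUT match, 30 bases before the start, and 2.59% of 33469 promoters of this length hold 1 or more. The downstream promoter held a pair of HNF1 half-sites, at 90 and 83 bases before the start, and 7.45% of promoters hold the letters. The Cebpa promoter held C/EBP half-sites at 235 and 194 bases before its start, letters that 17.8% of promoters hold. Cebpb carried 3 TGACG letters, at 234, 107 and 61 bases before the start, against 21.2% of promoters with any, and both C/EBP promoters had a TATA match (14.2% of promoters). The same windows were searched for the C/EBP full site TTGCNNAA (10.6% of promoters), the STAT3 letters TTCNNNGAA (8.87%), an NF-kB motif (1.53%), the HNF4 letters CAAAGNNCA (6.08%) and the FOXA letters TGTTTAC (3.78%), and these 4 windows held no match to them. No site overlapped another. A match describes letters only, and shows neither binding nor a cause.

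Hnf4a, the nuclear receptor at the center of the network, was lower in sepsis under both anesthetics and was the only one of the 9 factors that fell. Its level was 352, 266, 302 and 379 CPM in the Isoflurane-Sepsis libraries and 681, 656, 688 and 689.7 CPM in isoflurane controls. In Propofol-Sepsis it was 628, 534, 571 and 603 CPM, and in propofol controls 1009, 925, 979.9 and 953 CPM. The 4 groups formed an order in which no neighbours overlapped, from propofol control (967 ± 36.1 CPM, SD, n = 4) through isoflurane control (679 ± 15.5) and Propofol-Sepsis (584 ± 40.6) to Isoflurane-Sepsis (325 ± 50.6). The log2 fold change was -1.06 (SE 0.11, edgeR adjusted p = 0.000155) under isoflurane and -0.73 (SE 0.065, adjusted p = 5.63e-05) under propofol. Each comparison of 4 libraries with 4 gave an exact two-sided permutation p of 0.0286, the smallest this design allows. Without library 3 the isoflurane value was -1.04, and without library 10 the propofol value was -0.69. In the plot of levels by library, Hnf4a is the factor whose libraries lie closest together within each control group, with coefficients of variation of 2.28% and 3.73%.

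**Figure D1:**
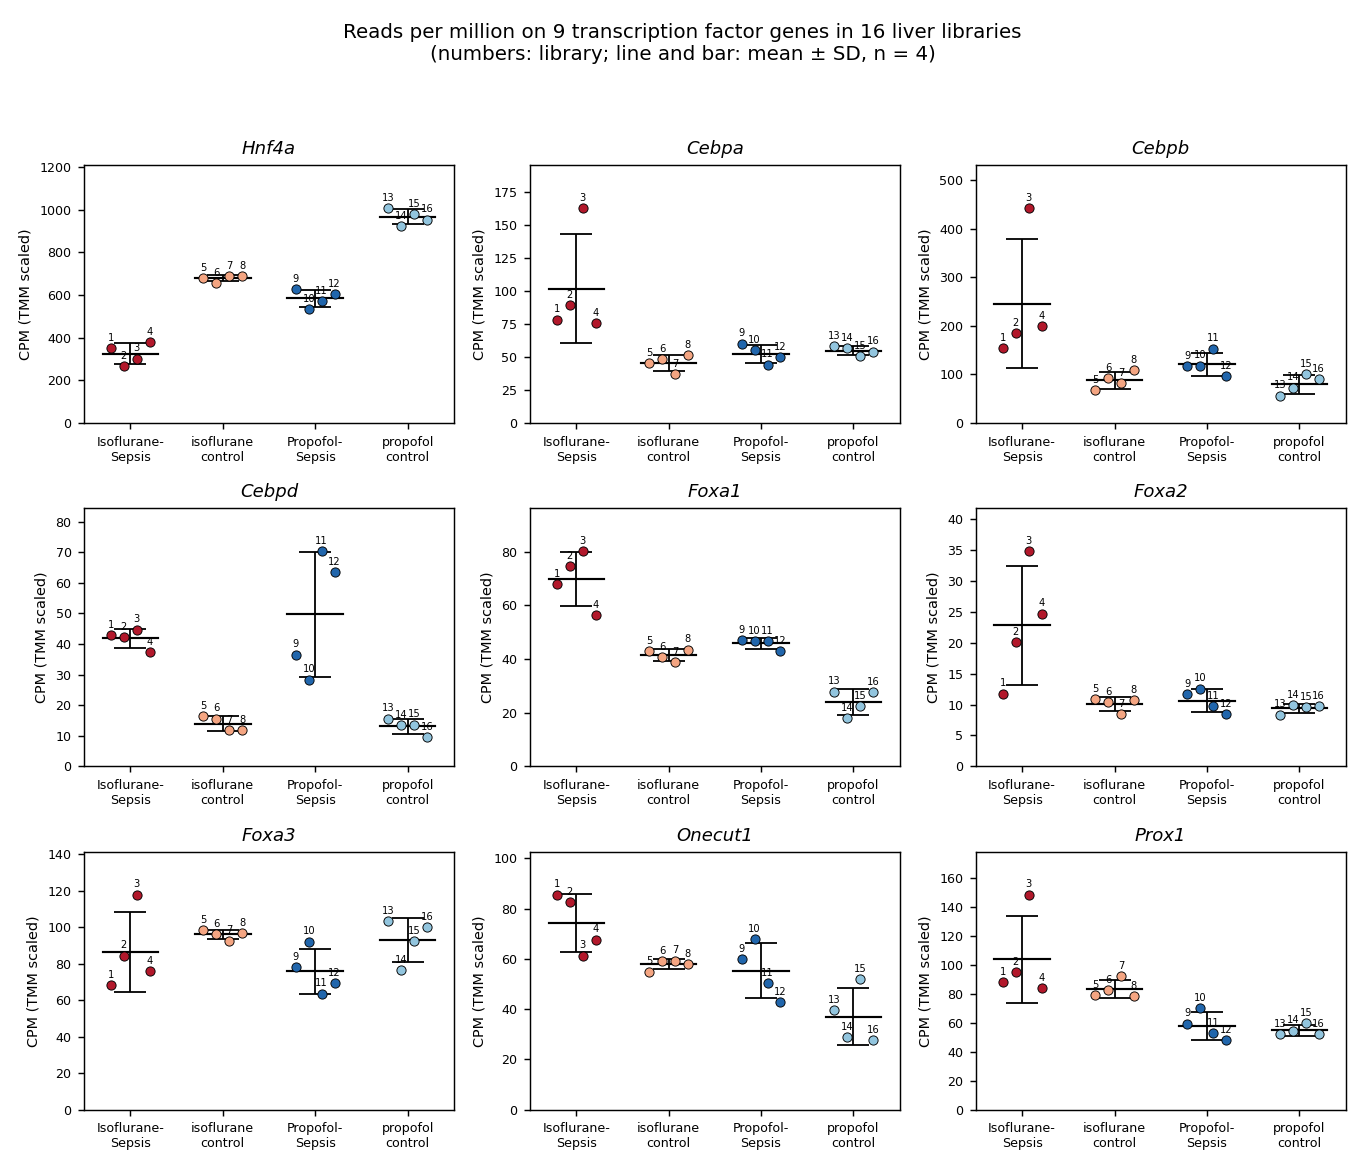
Level of each of the 9 factors (vertical axis, CPM after TMM scaling, from 0) in each of the 16 libraries (points, numbered by library) by group, with the mean and SD of 4 libraries as lines and bars. Hnf4a falls from 967 ± 36.1 CPM in propofol control to 325 ± 50.6 CPM in Isoflurane-Sepsis with no overlap between groups, and library 3 is the highest Isoflurane-Sepsis library for 7 factors, among them Cebpa, Cebpb and Foxa2.

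Under isoflurane 7 of the 9 factors were called, 6 higher and 1 lower, where 50.0% of the 10361 genes tested were called, 25.7% higher and 24.4% lower. Under propofol 4 of 9 were called, 3 higher and 1 lower, against a background of 42.1% of 10348 genes, 20.4% higher and 21.7% lower. The sepsis and control libraries did not overlap for 7 factors under isoflurane and 3 under propofol, where this held for 48.7% and 42.2% of all genes tested. The share called under propofol is close to the background. Without library 3, 8 factors were called under isoflurane, and without library 10, 5 were called under propofol, in each case because Foxa3 was then called lower. The median log2 fold change of the 9 factors was 0.75 under isoflurane and 0.16 under propofol, and that of all genes tested was 0.0061 and -0.0016.

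**Figure D2:**
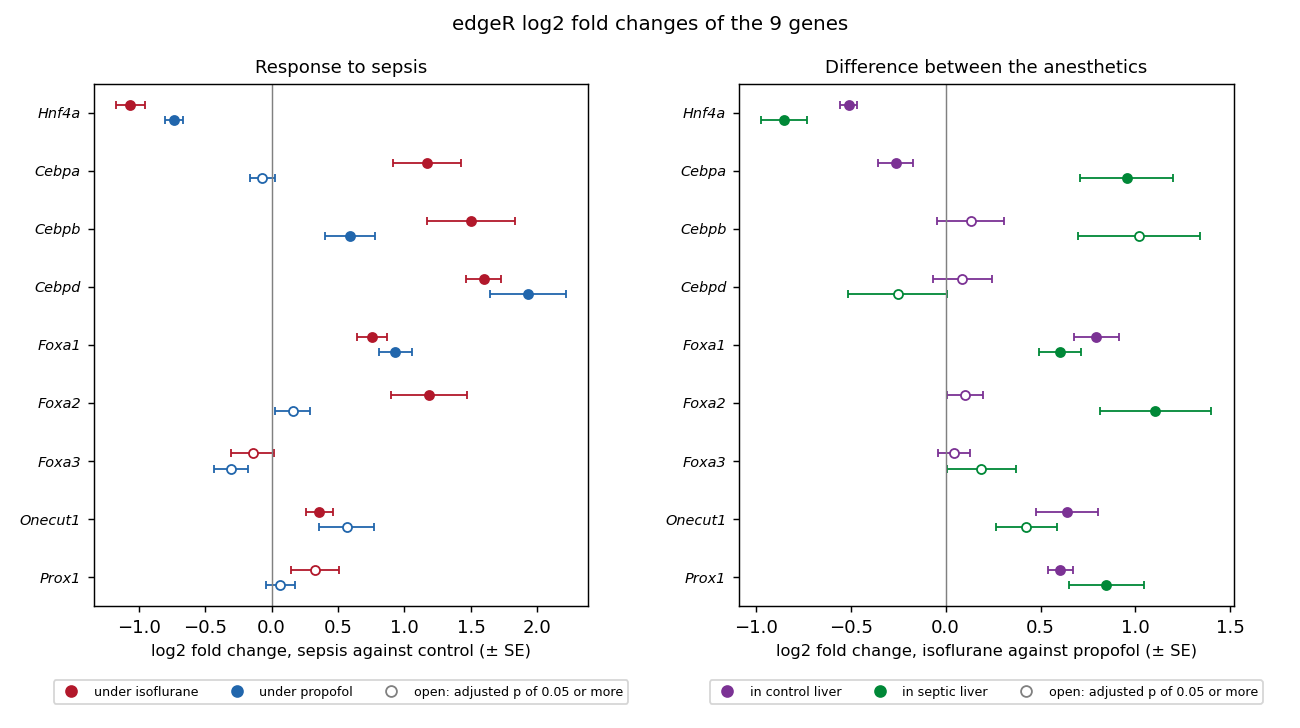
Log2 fold changes from edgeR (points, bars ± SE) of the 9 factors, for sepsis against control under each anesthetic on the left and for isoflurane against propofol in control and septic liver on the right. Filled points have an adjusted p below 0.05; Hnf4a is to the left of 0 in all 4 comparisons, and Cebpa is at 1.17 under isoflurane and -0.069 under propofol.

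Cebpa, the C/EBP gene of resting hepatocytes, rose under isoflurane and showed no called change under propofol. It was at 78.3, 89.6, 163 and 75.7 CPM in Isoflurane-Sepsis, above every isoflurane control (45.1, 48.5, 37.0 and 51.4 CPM), a log2 fold change of 1.17 (SE 0.25, edgeR adjusted p = 0.00501). Library 3 stood well above the other septic libraries, and without it the log2 fold change was 0.83 (adjusted p = 0.00115). In Propofol-Sepsis the level was 60.1, 55.4, 44.2 and 49.9 CPM and in its controls 58.0, 56.5, 50.4 and 54.0 CPM. These groups overlapped, with a log2 fold change of -0.069 (SE 0.096, adjusted p = 0.588). Of the 4 groups only Isoflurane-Sepsis stood clear of its neighbour, and the ranges of propofol control, Propofol-Sepsis and isoflurane control overlapped in turn.

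Cebpb, induced by IL-6 and IL-1 in hepatocytes and also expressed by macrophages, rose in sepsis under both anesthetics. Under isoflurane its level was 155, 185, 443 and 200.1 CPM, against 68.3, 91.6, 81.7 and 108 CPM in controls, with no overlap and a log2 fold change of 1.501 (SE 0.33, edgeR adjusted p = 0.00551). Library 3 was again the highest, at over 2 times the next library, and without it the log2 fold change was 1.03 (adjusted p = 0.00153). Under propofol the level was 117, 118, 153 and 95.6 CPM, against 56.0, 72.5, 101 and 89.9 CPM. Library 12 lay below the highest control, and the log2 fold change was 0.59 (SE 0.19, adjusted p = 0.0288, exact two-sided permutation p = 0.0571). That call was lost without library 9, 11, 13 or 14 (adjusted p from 0.0515 to 0.0794). The neutrophil and monocyte markers summed to 44.7, 83.8, 129 and 113 CPM in libraries 1 to 4. The order of the 4 libraries by this sum is their order by Cebpb, and for Cebpa library 3 is the highest by both while library 4, next by the marker sum, is the lowest. Foxa2 put the 4 libraries in the same order as Cebpb, so that order is not particular to Cebpb. The part of neutrophils and monocytes in the levels of Cebpa and Cebpb was not tested.

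Cebpd, the member of the family known for its rapid induction in the acute phase, had the largest log2 fold change of the 9 factors under propofol, and under isoflurane a value close to that of Cebpb, which was the larger without library 1, 2 or 8. Its level was 42.9, 42.2, 44.7 and 37.4 CPM in Isoflurane-Sepsis and 16.5, 15.6, 11.8 and 11.7 CPM in isoflurane controls, a log2 fold change of 1.59 (SE 0.13, edgeR adjusted p = 6.71e-05). Here library 3 did not stand apart, and the 4 septic libraries had a coefficient of variation of 7.46%. Under propofol the septic libraries were at 36.5, 28.3, 70.3 and 63.4 CPM and the controls at 15.6, 13.5, 13.7 and 9.60 CPM, a log2 fold change of 1.93 (SE 0.29, adjusted p = 0.000658). Libraries 11 and 12 were about 2 times libraries 9 and 10, with a coefficient of variation of 41.0%. Both septic groups overlapped each other, and so did both control groups, while every septic library lay above every control library.

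Because C/EBP proteins bind the same element, the ratio of their reads within a library was also taken, which does not depend on how libraries are scaled. It compares reads and not protein, and it is given without a test. The ratio of Cebpb to Cebpa reads was 2.35 ± 0.385 (SD, n = 4) in Isoflurane-Sepsis and 1.93 ± 0.308 in its controls, and 2.37 ± 0.741 in Propofol-Sepsis and 1.48 ± 0.452 in its controls. These groups overlapped under both anesthetics. The ratio of Cebpd to Cebpa reads was 0.608, 0.511, 1.59 and 1.27 in the Propofol-Sepsis libraries, all above the propofol controls at 0.269, 0.238, 0.271 and 0.178. Under isoflurane it was 0.548, 0.471, 0.274 and 0.494 in sepsis and 0.366, 0.321, 0.320 and 0.228 in controls, and library 3, where Cebpa was highest, fell inside the control range.

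**Figure D3:**
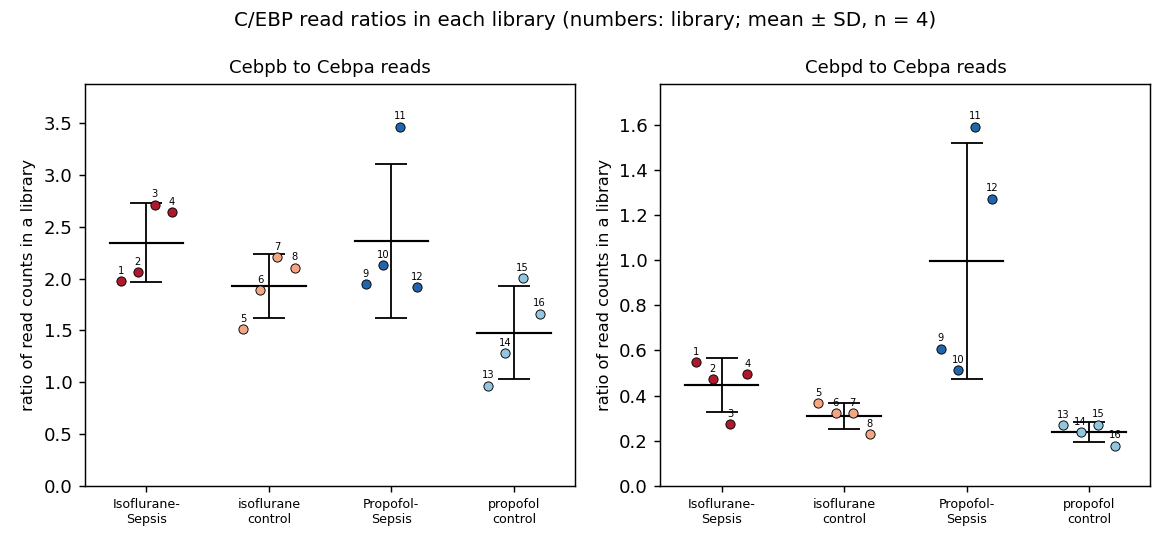
Ratio of Cebpb to Cebpa reads (left) and of Cebpd to Cebpa reads (right) in each library (points, numbered), with the mean and SD of 4 libraries per group; both axes start at 0. The Cebpd to Cebpa ratio is 0.996 ± 0.522 in Propofol-Sepsis and 0.239 ± 0.0435 in propofol control, while for Cebpb to Cebpa the septic and control libraries overlap.

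The 3 FOXA genes, whose products open chromatin at hepatocyte enhancers, did not share 1 pattern. Foxa1 rose under both anesthetics: its level was 68.0, 74.6, 80.2 and 56.5 CPM in Isoflurane-Sepsis against 42.9, 40.7, 38.9 and 43.5 CPM in controls, a log2 fold change of 0.75 (SE 0.11, edgeR adjusted p = 0.000827). Under propofol it was 47.1, 46.8, 46.8 and 42.9 CPM against 27.9, 18.0, 22.5 and 27.5 CPM, a log2 fold change of 0.93 (SE 0.12, adjusted p = 0.000385). Neither pair of groups overlapped. The levels of Foxa1 in Propofol-Sepsis reached only those of isoflurane controls, and these neighbours in the order of groups overlapped (45.9 ± 2.02 and 41.5 ± 2.11 CPM, SD, n = 4).

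Foxa2, which in fasting liver takes part in fat oxidation, rose under isoflurane, with 11.8, 20.04, 34.8 and 24.7 CPM in sepsis and 10.8, 10.4, 8.50 and 10.7 CPM in controls. Library 1 lay just above the highest control and library 3 at about 3 times it, and the log2 fold change was 1.18 (SE 0.29, edgeR adjusted p = 0.00855). Without library 3 it was 0.89 (adjusted p = 0.0141). Under propofol the levels overlapped, 8.48 to 12.6 CPM in sepsis and 8.37 to 9.96 CPM in controls, with a log2 fold change of 0.16 (adjusted p = 0.345). Foxa3 binds many of the sites that Foxa1 and Foxa2 bind. Its septic libraries ran from 68.0 to 118 CPM under isoflurane and 63.5 to 92.1 CPM under propofol, and the controls from 92.6 to 98.3 and 76.3 to 103 CPM. It was not called, at -0.14 (adjusted p = 0.486) and -0.30 (adjusted p = 0.0802) on the log2 scale. However, single libraries decided this. Without library 3 the isoflurane value was -0.34 (adjusted p = 0.0130), and under propofol it was -0.40 (adjusted p = 0.0173) without library 10 and -0.39 (adjusted p = 0.0391) without library 14.

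Of the homeobox genes, Onecut1 was called under isoflurane and Prox1 under neither anesthetic. Onecut1 was at 85.5, 82.5, 61.3 and 67.7 CPM in Isoflurane-Sepsis and 55.0, 59.0, 59.3 and 58.0 CPM in controls, and was called higher with a log2 fold change of 0.36 (SE 0.10, edgeR adjusted p = 0.0174). That call was lost without library 2 or library 5 (adjusted p 0.0518 and 0.0548). Under propofol Onecut1 was at 60.0, 67.7, 50.3 and 42.7 CPM in sepsis and 39.6, 28.8, 52.0 and 27.8 CPM in controls. Its log2 fold change of 0.57 (SE 0.21) had an adjusted p of 0.0505, which fell to 0.0327 without library 12 and 0.00970 without library 15. Library 10, the pool with brain transcripts, was its highest septic library. Prox1 was at 88.3, 95.2, 149 and 83.9 CPM in Isoflurane-Sepsis and 78.7 to 92.5 CPM in controls, a log2 fold change of 0.33 (adjusted p = 0.165), and 0.089 without library 3. Under propofol it ran from 48.1 to 70.2 CPM in sepsis and 52.4 to 59.8 CPM in controls, a log2 fold change of 0.066 (adjusted p = 0.654). Prox1 is also expressed in brain and in lymphatic endothelium. Without library 10, where it was highest among the Propofol-Sepsis pools, its value was -0.036.

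The anesthetics were compared next, with values given as isoflurane minus propofol. These comparisons use the same libraries as the sepsis comparisons, and the names of the submitted files carry 1 code for all isoflurane and another for all propofol libraries, whose meaning is not given. The anesthetic and what that code marks cannot be told apart. In control liver 5 factors were called, 3 higher and 2 lower, where 43.3% of 10314 genes were called, 21.6% higher and 21.7% lower, a share near that of the factors. The libraries did not overlap for 4 factors, against 40.3% of all genes. Foxa1 (0.79, edgeR adjusted p = 0.000399), Onecut1 (0.64, adjusted p = 0.00958) and Prox1 (0.60, adjusted p = 7.65e-05) were higher under isoflurane. Hnf4a (-0.51, adjusted p = 2.14e-05) and Cebpa (-0.26, adjusted p = 0.0393) were lower. The Cebpa call was lost without library 5, 6, 7, 13, 14 or 16 (adjusted p from 0.05005 to 0.0942). Scaling by library totals alone moved the median log2 fold change of all genes to -0.15 in control and -0.16 in septic liver. It left these 5 calls and their directions in place.

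In septic liver 5 factors were called, 4 higher and 1 lower under isoflurane, against 19.3% of 10272 genes called, 10.6% higher and 8.66% lower. Here 5 factors did not overlap, against 25.6% of all genes. Hnf4a was lower (-0.85, SE 0.12, edgeR adjusted p = 0.00713). Cebpa (0.95, adjusted p = 0.0303), Foxa1 (0.60, adjusted p = 0.0137), Foxa2 (1.11, adjusted p = 0.0330) and Prox1 (0.85, adjusted p = 0.0240) were higher. Cebpb lay above every Propofol-Sepsis library in each Isoflurane-Sepsis library, with 1.02 and an adjusted p of 0.0534. It was called by DESeq2 (1.03, adjusted p = 0.00964), in the fit of all 16 libraries (1.02, adjusted p = 0.0110) and without library 1 (adjusted p = 0.0270), and Onecut1 was called without library 10 (0.54, adjusted p = 0.0442). Some calls were lost with 1 library left out, and leaving out library 3 lowered several log2 fold changes. Without it they were 0.63 for Cebpa, 0.63 for Prox1, 0.83 for Foxa2, 0.53 for Foxa1 and 0.57 for Cebpb. That of Hnf4a was then -0.82. Cebpa was lost without library 2, 9, 11 or 12 (0.88 to 1.03, adjusted p up to 0.0904), Prox1 without 9, 11 or 12 (0.77 to 0.86, up to 0.0805) and Foxa1 without 9 or 12 (0.57 and 0.62, up to 0.0573). Foxa2 was lost without 2, 3, 4, 9, 11 or 12 (0.83 to 1.17, up to 0.101) and by limma-voom with all libraries (1.03, adjusted p = 0.0505). The number of factors called was 3 without library 2, 1 without library 9, 2 without library 11 and 1 without library 12, where the calls over all genes numbered 1253, 289, 314 and 249, against 1982 with all libraries. Without library 3 it was 4 (842 genes) and without library 10 it was 6 (2327 genes).

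Whether the response to sepsis itself differed between the anesthetics was asked with an interaction term, fitted to the 16 libraries together. Cebpa was the 1 factor called, at 1.22 (SE 0.28, edgeR adjusted p = 0.0366), where 2.72% of 10621 genes were called, 1.66% higher and 1.06% lower. Its response was above 0 under isoflurane and close to 0 under propofol. The call held without library 3 (0.90, adjusted p = 0.0261) and without library 10 (1.25, adjusted p = 0.0408), but was lost without any 1 of libraries 5, 6, 7, 8, 9, 11, 12, 13, 14 and 15, with values from 1.14 to 1.29 and adjusted p from 0.0524 to 0.0772. Without these libraries 54 to 138 genes in all were called, against 289 with all 16. Foxa2 had 1.01 (adjusted p = 0.0940) and was called by DESeq2 (1.02, adjusted p = 0.0443) and without library 1 (1.23, adjusted p = 0.00635). Cebpb had 0.89 (adjusted p = 0.195), and 0.44 without library 3. For Hnf4a the difference was -0.34 (SE 0.13, adjusted p = 0.135). The differences of Cebpd (-0.34), Foxa1 (-0.19), Foxa3 (0.15), Onecut1 (-0.21) and Prox1 (0.25) had adjusted p values of 0.499 or more.

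**Figure D4:**
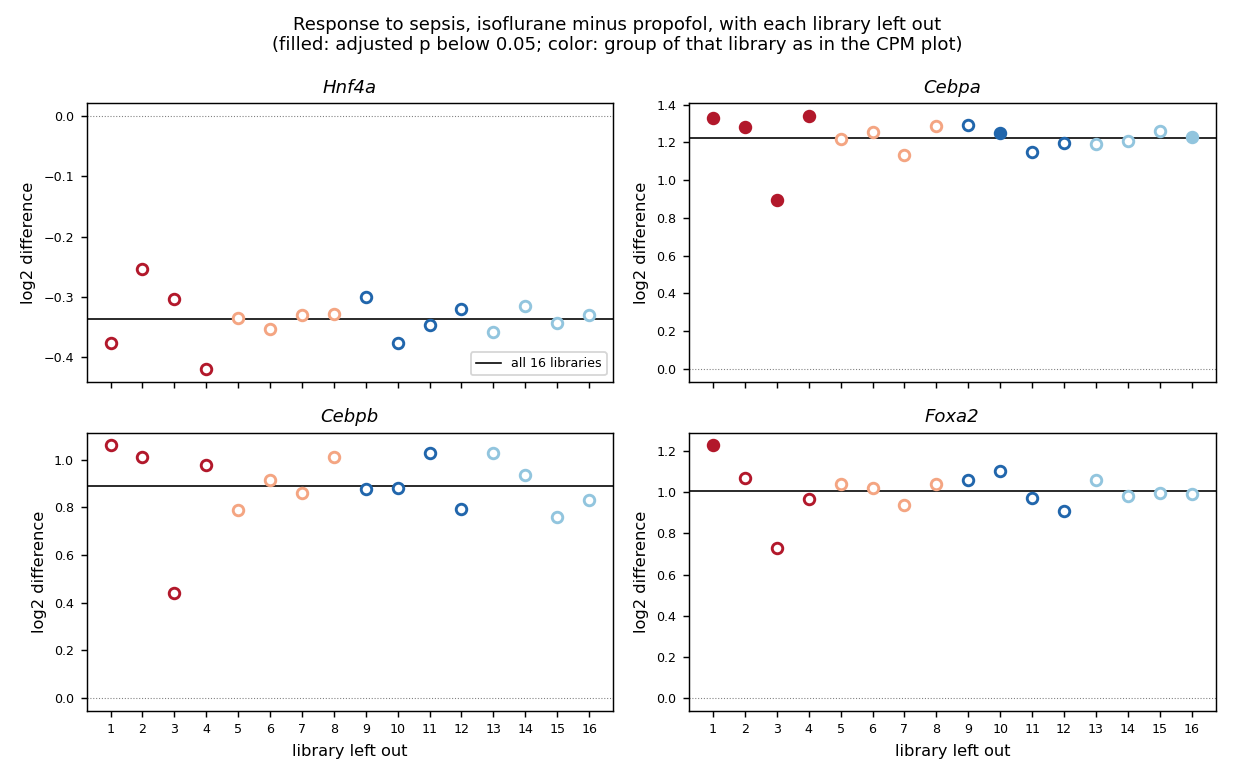
Difference in the response to sepsis, isoflurane minus propofol (vertical axis, log2), of Hnf4a, Cebpa, Cebpb and Foxa2 with each library left out in turn (horizontal axis); filled points have an adjusted p below 0.05 and the line is the value from all 16 libraries. Leaving out library 3 lowers Cebpa from 1.22 to 0.90 and Cebpb from 0.89 to 0.44.

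The genes around these factors were followed in lists of pathway genes. The counts of every list below are to be read beside the shares over all genes tested. These were 50.0% called under isoflurane (25.7% higher, 24.4% lower) and 42.1% under propofol (20.4% higher, 21.7% lower). Receptors and signals that act on C/EBP genes were called 6 higher and 2 lower of 12 under isoflurane, and 6 higher and 1 lower of 12 under propofol. Fosl2, an AP-1 subunit, had log2 fold changes of 2.13 and 1.55. Socs3, the feedback inhibitor of IL-6 signaling, had 1.17 and 0.76, Nfkbia, the inhibitor of NF-kB, 1.10 and 0.81, and Osmr, the oncostatin M receptor, 1.16 and 0.63, all called under both anesthetics. The list's median log2 fold change was 0.66 and 0.28. Of 7 tested regulators of C/EBP proteins or genes, 4 were higher and 0 lower under isoflurane, and 2 higher and 1 lower under propofol (medians 0.47 and 0.21). Trib1, a pseudokinase that directs C/EBP-alpha to degradation, had 1.15 under isoflurane and 0.69 under propofol, the latter lost without library 9, 10, 11, 13, 14 or 16 (adjusted p up to 0.0956), with library totals (0.0576) and with no filter (0.0512). Trib3 was called lower under propofol (-1.25) and was at 0.26 (edgeR adjusted p = 0.487) under isoflurane.

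Of 7 tested C/EBP relatives and leucine zipper partners, 4 were higher and 2 lower under isoflurane, and 1 higher and 2 lower under propofol (medians 0.66 and 0.11). Dbp, a PAR leucine zipper factor under circadian control, was lower under both (-2.72 and -1.91), and Nfil3, which binds the same element as a repressor, was higher (1.51 and 0.90, the latter with an edgeR adjusted p of 0.0167, and 0.0502 without library 14). Ddit3, the stress-induced partner also called CHOP, was at 23.1, 27.4, 48.4 and 24.2 CPM in Isoflurane-Sepsis, above its controls (10.7 to 12.96 CPM), a log2 fold change of 1.43. Under propofol it had 0.30 (adjusted p = 0.0636). Library 3 was the highest for Ddit3 and Nfil3, as for Cebpa and Cebpb.

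Among 17 other hepatocyte lineage factors 5 were called higher and 8 lower under isoflurane, and 2 higher and 9 lower under propofol (medians -0.19 and -0.46). Creb3l3, a liver factor anchored in the endoplasmic reticulum (-1.28 and -0.998), and Rxra, the partner of many nuclear receptors (-1.19 and -0.81), fell under both anesthetics, as Hnf4a did. Nfia fell under propofol (-1.20) and under isoflurane (-0.67, edgeR adjusted p = 0.0352), the latter lost without library 1, 5, 6, 7 or 8 (adjusted p up to 0.0830). Nr0b2 (SHP), the bile acid-induced corepressor, was at 0, 0.193, 0.363 and 0.181 CPM in Isoflurane-Sepsis and 0.693 to 1.58 CPM in its controls, and at 0.534 to 0.942 CPM in Propofol-Sepsis and 3.02 to 12.7 CPM in its controls, and was called lower in both. Its septic libraries under isoflurane held 0 to 7 reads, so no fold is given.

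Target genes were grouped by the factor they are known for. Of 19 genes known as targets of HNF4A or C/EBP-alpha, 2 were higher and 7 lower under isoflurane, and 1 higher and 7 lower under propofol, with medians of -0.13 and -0.14. The share called was near that of all genes tested, 50.0% under isoflurane and 42.1% under propofol. Hes6, a helix-loop-helix gene controlled by HNF4A, fell under both (-1.58 and -1.19), and so did Cyp7a1, the rate-limiting enzyme of bile acid synthesis (-1.79 and -2.53), whose isoflurane call was lost without library 1, 2, 4, 6, 7 or 8 (edgeR adjusted p up to 0.104) and by DESeq2 with all libraries (-1.77, adjusted p = 0.0505). Cyp8b1, the sterol 12-alpha-hydroxylase, fell under propofol (-1.23) and was at -1.32 (adjusted p = 0.107) under isoflurane, where it was called without library 4 and in the fit of all 16 libraries (adjusted p = 0.0357), a fit that lost its propofol call (adjusted p = 0.0632). Hamp, the iron hormone hepcidin, was higher under isoflurane (1.34) and at 0.061 (adjusted p = 0.834) under propofol. The list's other genes are given by these counts only.

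Of 11 genes known as FOXA or ONECUT targets, 1 was higher and 7 lower under isoflurane, and 3 higher and 6 lower under propofol (medians -0.92 and -0.64), while Foxa1 rose in both. Cpt1a, which admits fatty acids to mitochondria, was at 38.9, 40.8, 54.1 and 56.1 CPM in Isoflurane-Sepsis and 409, 387, 460.1 and 380.5 CPM in controls, a log2 fold change of -3.10, and had -1.65 under propofol. Pfkfb1, the liver enzyme that sets fructose 2,6-bisphosphate, fell by 2.26 under isoflurane and by 0.64 under propofol on the log2 scale, the latter lost without library 14 or 16 (edgeR adjusted p up to 0.0626) and in the fit of all 16 libraries (0.0843). G6pc, the last step of glucose release, fell under isoflurane (-1.59) and was at -0.91 (adjusted p = 0.183) under propofol, where it was called without library 9. Slc2a2, the glucose transporter GLUT2, fell under propofol (-2.15) and was at -0.92 (adjusted p = 0.101) under isoflurane, where it was called by DESeq2 (adjusted p = 0.0497), in the fit of all 16 libraries (adjusted p = 0.0454) and without library 3. Igfbp1, which binds insulin-like growth factors, rose under both (2.24 and 2.71).

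Genes known as targets of C/EBP-beta and C/EBP-delta, acute-phase genes with the cytokines Il1b and Il6, were called 10 higher and 1 lower of 17 under isoflurane. Under propofol they were called 12 higher and 1 lower of 16, and the medians were 0.27 and 0.21. Il6, with almost no reads in controls, is in the isoflurane count only. Lcn2, the iron-chelator binding lipocalin, rose by 3.20 and 2.24 on the log2 scale, Lbp, which binds bacterial lipopolysaccharide, by 1.58 and 1.19, and Orm1, the acid glycoprotein orosomucoid, by 0.73 and 1.05. Il1b, mostly a product of macrophages, rose by 3.70 and 2.36. Il6 was at 1.45, 2.00, 2.33 and 5.74 CPM in Isoflurane-Sepsis and was called higher against controls that held 1 to 4 reads, so that no fold is given. It had too few reads to be tested under propofol, at 0.517 to 1.03 CPM in sepsis and 0 to 0.116 CPM in controls. Across all these lists the interaction was called for Ddit3 (1.11), Trib3 (1.49), Cpt1a (-1.46), Pfkfb1 (-1.63) and Il1r1 (-0.70), the last named after its value was seen. Over all 10621 genes tested 2.72% were called. Whether the Il1r1 call depends on single libraries or settings was not examined.

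**Figure D5:**
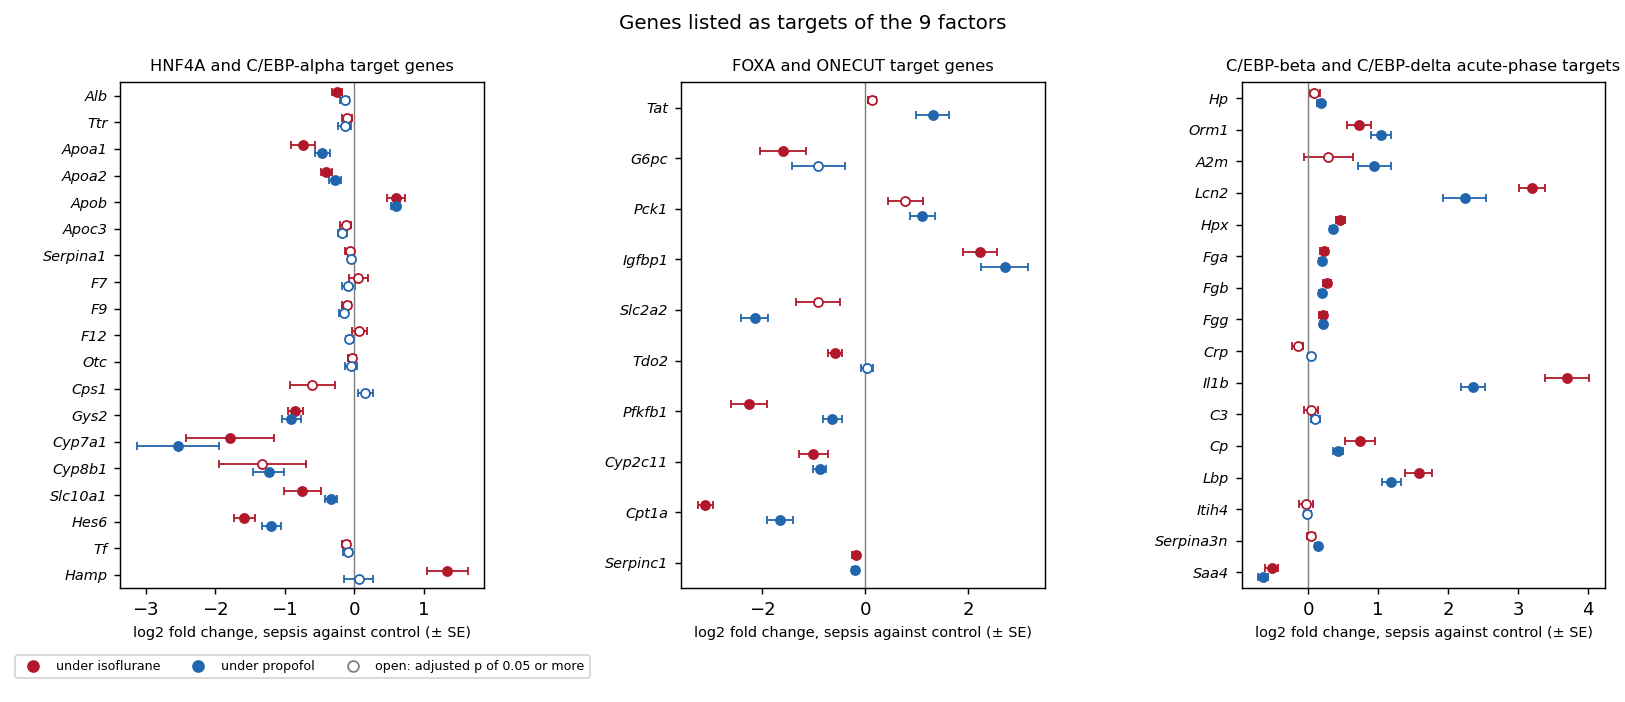
Log2 fold changes of sepsis against control (horizontal axis, points with bars ± SE) for the genes listed as targets of HNF4A and C/EBP-alpha, of FOXA and ONECUT factors, and of C/EBP-beta and C/EBP-delta, under isoflurane and propofol. Filled points have an adjusted p below 0.05. Cpt1a is lowest in the middle panel at -3.10 under isoflurane. The acute-phase genes and the cytokine gene Il1b on the right lie mostly above 0, with a median of 0.27 for the whole list under isoflurane. Il6 is not drawn because its controls held almost no reads, and not every other listed gene is drawn.

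Markers of cell types were counted in the same way, and their part in the levels of the 9 factors was not tested. Over all genes tested, 50.0% were called under isoflurane and 42.1% under propofol. Under both anesthetics the summed levels of septic and control libraries overlapped for Kupffer cell and bile duct markers, and not for endothelial markers. Of 8 tested neutrophil and monocyte markers 6 were higher under isoflurane and 4 under propofol, 0 were lower, and Ly6c, Mpo and Elane had at most 2 reads in any library. Kupffer cell and macrophage markers, 9 of 9 tested, were 6 higher and 1 lower under isoflurane and 2 higher and 1 lower under propofol, with sums of 423 to 583, 369 to 457, 412 to 506 and 439 to 491 CPM in isoflurane septic and control and then propofol septic and control libraries. Bile duct markers, which bear on Onecut1 since duct cells express it, summed to 28.5 to 38.3, 30.8 to 34.2, 21.96 to 29.2 and 24.7 to 31.3 CPM in the same order, with 2 higher and 1 lower of 4 tested under isoflurane and 1 and 1 under propofol. Endothelial markers, which bear on Prox1, summed to 116 to 128, 159 to 198, 157 to 166 and 191 to 232 CPM, with 1 higher and 4 lower of 8 under isoflurane and 3 and 3 under propofol. Of 8 stellate cell and fibroblast markers 4 were higher and 1 lower under isoflurane and 1 higher and 3 lower under propofol. Of 11 hepatocyte markers 2 were higher and 3 lower under each anesthetic. Most of these hepatocyte markers are also in the lists of target genes above, so their count is not separate from those. Lymphocyte markers had 3 tested, 2 higher under isoflurane and 1 lower under propofol, red cell markers had 4 tested and 0 called, and of 2 tested gut markers Fabp2 was lower in both. Under propofol 2 of 6 tested brain markers were higher, and for 2 of the 6 the septic and control libraries did not overlap. The summed level of brain markers was 392 CPM in library 10, the pool with brain transcripts. It was at most 26.7 CPM in the other Propofol-Sepsis libraries and 7.01 to 19.1 CPM in propofol controls. The part of library 10 in these brain marker calls was not tested, so they are not read as a change in sepsis.

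The genes whose levels ran most like each factor were found by Pearson's r of log2 CPM over the 16 libraries among 8892 other genes whose mean log2 CPM was 1 or more. These r values are descriptions, since the 4 groups and the shared libraries shape them. Hnf4a ran with Klhl42 (r = 0.98) and Idh1 (0.97). Cebpa ran with Mdm2, Ninj1 and Tfrc (0.94, 0.94 and 0.93), and Cebpb with Yy1, Dyrk1a and Fbxo34 (0.95, 0.94 and 0.94). Cebpd ran with Map3k8, Tifa and Zc3h12a (0.96 for each). The nearest genes of Foxa1 were Gnai3, Gca and Mt1a (0.98, 0.97 and 0.97), those of Foxa2 Snx18, RGD1303142 and Rbpms (0.98, 0.97 and 0.97), and those of Foxa3 Plcg1, Sfmbt1 and Furin (0.90, 0.86 and 0.85). Onecut1 ran with Rab3gap2, Slain2 and Trappc10 (0.94, 0.91 and 0.91) and Prox1 with Myo1e, Golph3 and Clasrp (0.97, 0.94 and 0.94). Between the factors, r was -0.93 for Hnf4a and Foxa1, 0.88 for Foxa2 with Cebpa and with Cebpb, and 0.43 for Cebpd and Cebpa.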

How the data were processed

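Liver RNA pools of 3 rats were sequenced after poly(A) selection with a directional kit, and the authors deposited, for each of 16 libraries, raw counts of reads per gene symbol without normalization. The submitters' processing notes name STAR and the build rn5, and the counting program is not given in the sources used here. Groups were taken from the sample labels. Reads counted to no gene (21.6% to 25.4% of all reads) or as ambiguous (1.07% to 1.35%) were kept out of library sizes and tests. Of 17055 symbols 14175 matched the RefSeq table. Libraries of 1 group differed by more than counting noise (chi-square per degree of freedom 3.35 to 96.3), so none was a copy of another.

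The main test was edgeR 4.0.16 (R 4.3.3), glmQLFit and glmQLFTest, with TMM scaling and filterByExpr (minimum count 10, minimum total 15), in separate fits of 4 libraries against 4. The interaction used 1 fit of all 16. Adjusted p values are Benjamini-Hochberg over all genes tested and were called below 0.05. Single levels were compared by an exact two-sided permutation test of mean log2 CPM (prior count 2). The alternatives were RLE size factors, library totals, DESeq2 1.42.0 (the study's tool), limma-voom (limma 3.58.1), testing without a filter or at a mean CPM of 1 or more, thinning every library to the depth of the shallowest, fitting the 16 libraries together, calling at 0.01, and leaving out 1 library at a time. The scripts were tested on simulated counts.

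The 9 factors and the gene lists were chosen with earlier results of these data known. Named from each list were genes called in either sepsis comparison whose log2 fold change exceeded 1 in size, at most 6 a list, any called gene of a list with fewer than 5 called, and for each factor the 3 genes with the highest Pearson r. A few genes under this rule are not reported by name, but stay in the counts. Marker lists covered hepatocytes and bile duct, Kupffer, neutrophil and monocyte, lymphocyte, endothelial, stellate, red, pancreas and gut, and brain cells. The counting of reads shared by neighbouring genes was not checked.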

Additional observations from a re-analysis of the deposited data

Results flagged for a closer look

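Single libraries stood far from the other 3 of their group in 4 of the quantities tested, by Dixon's ratio of the gap next to the extreme library to the whole range, at the 95% critical value. The quantities were the levels of the 9 factors and both C/EBP read ratios, each in all 4 groups. Chance gives about 1 in 20 of such groups, so some of these may be due to chance. In Isoflurane-Sepsis, library 3 was high for Cebpa (163 CPM, ratio 0.842) and for Cebpb (443 CPM, ratio 0.842). In Propofol-Sepsis, library 12 was low for Foxa1 (42.9 CPM, ratio 0.920), within a group whose whole spread was small, and library 11 was high for the Cebpb to Cebpa read ratio (3.47, ratio 0.864).

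The response to sepsis differed between the anesthetics, by the edgeR interaction test with isoflurane minus propofol as its sign, for Cebpa (1.22), Ddit3 (1.11), Trib3 (1.49), Cpt1a (-1.46) and Pfkfb1 (-1.63). The same test called 2.72% of 10621 genes. Cpt1a was lower in every septic library under both anesthetics, while Trib3 was called lower under propofol alone. Each of these calls was lost with some libraries left out: Cebpa with 10 of the 16, Ddit3 with 12, Trib3 with 13, Cpt1a with 4 (libraries 6, 7, 8 and 12) and Pfkfb1 with 13. With all 16 libraries, Ddit3 was also lost by limma-voom (adjusted p = 0.0678), with no filter (0.0588) and with thinned counts (0.0532), Trib3 by limma-voom (0.0662) and with no filter (0.0588), and Pfkfb1 with no filter (0.0598). The cause was not tested.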

How the results depend on the processing

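With 1 library left out, the number of factors called lay between 6 and 8 under isoflurane, 3 and 5 under propofol, 4 and 5 in control liver, 1 and 6 in septic liver and 0 and 2 for the interaction. The interaction count was 2 with DESeq2, which also called Foxa2 (1.02, adjusted p = 0.0443), and 0 at an adjusted p below 0.01. At that threshold 1 factor was called between the anesthetics in septic liver. Hnf4a, Cebpd and Foxa1 were called in the same direction in both sepsis comparisons under every alternative that was run. The all-library fit lost Onecut1 under isoflurane (adjusted p = 0.103), Cebpb under propofol (0.105) and Cebpa in control liver (0.347). Onecut1 under propofol was called with RLE size factors (0.0489), DESeq2 (0.0163), limma-voom (0.0422), thinned counts (0.0411) and all 16 libraries in 1 fit (0.0214). Foxa3 under propofol was called lower with library totals (-0.36, 0.0493), and the interaction was called by DESeq2 for Hamp (1.28, 0.0230) and Il1b (1.34, 0.0103). By edgeR the interaction was called for Hamp and for Il1b without library 1 or 4. It was also called for Dbp without library 1 (-1.60, 0.0142) and for Nfia without library 4 (0.70, 0.0473). Over all genes the interaction called 289 and by DESeq2 847, with no filter 168 and with thinned counts 187, and the comparison in septic liver called 1982 and with all 16 libraries in 1 fit 4099. Some values that were not called changed sign. With 1 library left out, Trib3 under isoflurane ran from -0.11 (without library 3) to 0.45, Cebpa under propofol from -0.14 to 0.0063 (without 11), Hamp from -0.13 (without 11) to 0.23 and Prox1 from -0.036 (without 10) to 0.15. The interaction of Foxa3 ran from -0.038 (without 3) to 0.25 and that of Cyp8b1 from -0.55 to 0.28 (above 0 without 4, 7, 9 or 16). In control liver Cebpb ran from -0.0028 (without 13) to 0.26, Cebpd from -0.048 (without 16, also below 0 without 5) to 0.18 and Foxa3 from -0.038 (without 14) to 0.10, and library totals gave Cebpb -0.013, Cebpd -0.058, Foxa2 -0.041 and Foxa3 -0.10. The cause of these changes was not tested. Of the 9 factors' values and C/EBP read ratios with 1 library left out, 412 kept their direction and, where tested, their side of the threshold. A further 37 lost their call, 8 gained one and 7 changed sign. Under other settings the same counts were 375, 12, 9 and 4. No paired analysis was possible because the groups share no replicate number. With 4 pools a group, exact tests of single levels cannot give a p below 0.0286, and levels of genes with few reads, such as Nr0b2 and Il6, are limited by counting.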
